A study of Mus musculus with 2 samples.

Results

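The regions described here are the 2798 places on mouse chromosomes 1 to 19 that were called in both replicate lists and that lie in crowded stretches of the genome. Chromosomes were divided into bins of 1 Mb from their first base, regions of the replicate lists that overlapped by at least 1 bp were merged into shared regions, and each shared region was assigned to a bin by its midpoint. A bin with 20 or more shared regions is called dense. Of the 2425 autosomal bins between the first and the last called region of each chromosome, 121 were dense (4.99%). Their 2798 shared regions were 13.6% of all 20574 shared regions and 14.02% of the 19959 on autosomes. The bins and their members were chosen by the measured number of shared regions, so these counts are a description and were not tested.

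The regions come from chromatin immunoprecipitation and sequencing of corneal epithelium taken at postnatal day 7 from mice of the K14 DN-Clim genotype, and the antibody recognised the Myc tag that the transgene product carries. There was 1 group of 2 samples, which share the transgene, the age, the tissue and the antibody, and nothing in the labels says whether they came from separate animals. The keratin 14 promoter drives the transgene in basal epithelial cells, and the product is a tagged, dominant-negative form of Clim. No wild-type, untagged or input library was analysed here, so no background is set beside any count. Without read totals, depth and the precision it gives remain unknown. Sample 1 had 25592 regions and sample 2 had 42619 over the whole genome. The lists also start at different scores of the peak caller, 70.03 in sample 1 and 50.00 in sample 2.

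Clim proteins, also known as Ldb or Nli, are nuclear cofactors that do not bind DNA themselves. They dimerise and bind the LIM domains of LIM-homeodomain and LIM-only proteins, and so can join a regulatory element to another or to a promoter. The dominant-negative form keeps the contact with LIM domains and lacks the part through which Clim proteins pair. In the mouse genome, genes are unevenly spread, and long stretches rich in genes alternate with stretches that hold few. The centromere of a mouse autosome lies at the end where its coordinates begin.

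Dense bins were the upper tail of a continuous distribution. The median dense bin held 22 shared regions and the fullest held 42, whereas the median of the other 2304 autosomal bins was 7, and 62 bins held none. Just inside the limit, 28 bins held 20 shared regions each, or 560 members. Just outside it, 31 bins held 19 each, or 589 regions that are not counted as members. A count between 21 and 24 was found in 67 dense bins, a count of 25 or more in 26 and of 30 or more in 10.

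**Figure D1:**
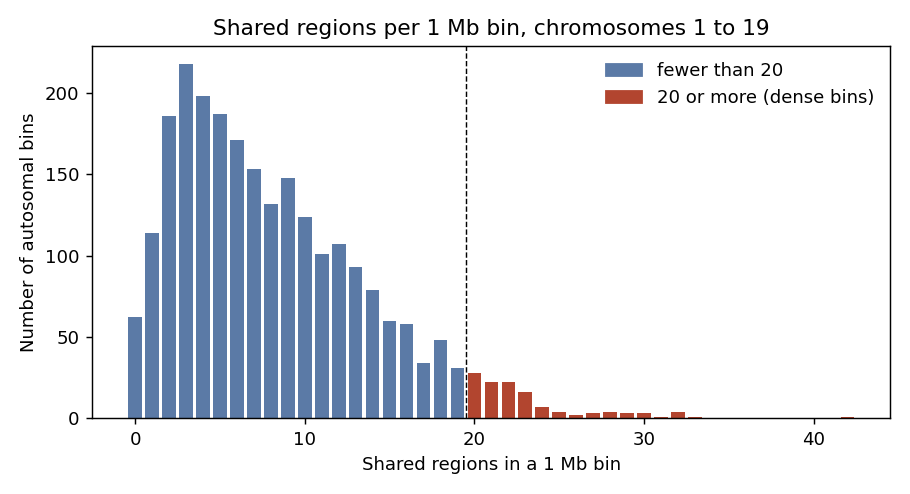
Number of autosomal 1 Mb bins (vertical axis) for each count of shared regions in a bin (horizontal axis), with the 121 dense bins in red and the other bins in blue. The counts fall off without a gap at the limit of 20, and the fullest bin, with 42, stands alone at the right.

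Every autosome had at least 1 dense bin, but their number differed widely. Chromosome 5 had 20 dense bins with 483 members, 13.3% of its 150 bins. Chromosome 11 had 12 dense bins with 303 members (10.1% of its bins), chromosome 10 had 10 with 233 members and chromosome 19 had 7 with 157 members, 11.9% of its 59 bins. Chromosomes 6, 14 and 16 had 1 dense bin each. Chromosome 1, with 195 bins, had 2.

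With all autosomes pooled, dense bins lay mostly toward the end of the chromosome away from the centromere. With the span of each chromosome divided into 5 equal parts, the part next to the centromere held 7 dense bins (1.44% of its bins) and the parts after it held 12 (2.47%), 18 (3.73%), 31 (6.39%) and 53 (10.9%). The mean count of shared regions over all bins of these parts went from 6.68 next to the centromere through 7.49, 7.65 and 8.54 to 10.8 at the far end. Single chromosomes could differ from this order. On chromosome 17, the 8 dense bins started at 5000001, 27000001, 28000001, 31000001, 35000001, 45000001, 47000001 and 84000001. No test was made of the pooled order, since neighbouring bins are not independent.

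Of the dense bins, 52 lay in 20 runs of adjacent dense bins and 69 stood alone. The runs held 1233 members. The longest run was on chromosome 5 from 115000001 to 121000000, where 6 adjacent bins held 157 members, with 20 to 32 in each. A run of 4 bins followed on the same chromosome from 122000001 to 126000000 with 96 members. Chromosome 15 had a run of 4 bins from 80000001 to 84000000 with 97 members, and chromosome 19 had one from 44000001 to 48000000 with 91 members. Runs of 3 bins spanned 138000001 to 141000000 on chromosome 4 and 113000001 to 116000000 on chromosome 11, with 76 members each. The remaining 14 runs were pairs of bins.

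The genes named below are placed by general knowledge of the mouse genome, because the gene table at hand uses another build than the lists. It served to check the names, the chromosome and the order of genes. No region was assigned to a gene, and a gene named for a bin is only one that lies in the same megabase.

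The fullest bin was on chromosome 11 from 117000001 to 118000000, which holds Septin9, a cytoskeletal GTPase gene, Tnrc6c, a gene of miRNA silencing, Tk1 and Birc5, genes of dividing cells, and Socs3, an inhibitor of cytokine signalling. Sample 1 had 52 regions there and sample 2 had 68, and 42 were shared, the number for which the bin is named first. Another 10 regions were found by sample 1 alone and 25 by sample 2 alone. The members covered 5990 bp in all, with a median width of 142.5 bp. They lay in all 10 stretches of 100 kb of the bin, with at most 6 in a stretch, so the bin was filled along its whole length. The strongest member, ranked by the mean of its score percentiles within the lists, lay from 117725746 to 117725835. It scored 342.64 in sample 1 and 205.17 in sample 2.

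The next bin was on chromosome 4 from 139000001 to 140000000, with 33 members out of 40 regions in sample 1 and 55 in sample 2. It holds Pax7, a transcription factor gene of muscle stem cells and neural crest, and Aldh4a1, an enzyme of proline breakdown. Of the 33 members, 9 lay in the 100 kb from 139300001 to 139400000. The strongest member lay in that stretch, from 139343756 to 139343913, and scored 528.09 in sample 1 and 214.14 in sample 2. Its nearest member was 1746 bp away.

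Next came 4 bins with 32 members each. On chromosome 11, the bin from 114000001 to 115000000 holds Ttyh2, the receptor gene Gprc5c and the immune receptor gene Cd300a, and had 40 regions in sample 1 and 50 in sample 2. Its members left a gap of 233.1 kb, and the median distance from one to the next was 13.3 kb. On chromosome 17, the bin from 31000001 to 32000000 holds the phosphodiesterase gene Pde9a, the homeobox gene Pknox1, the cysteine synthesis gene Cbs and the lens crystallin gene Cryaa. It had 40 regions in sample 1 and 49 in sample 2, and its median member score in sample 2, 128.65, was the highest of all dense bins. On chromosome 2, the bin from 30000001 to 31000000 holds the homeobox gene Prrx2, the prostaglandin synthase gene Ptges and Tor1a, and had 34 regions in sample 1 and 51 in sample 2. All but 2 of its sample 1 regions were shared. On chromosome 5, the bin from 118000001 to 119000000 holds Nos1, the neuronal nitric oxide synthase, with Fbxo21 and Tesc next to it. It had 39 regions in sample 1 and 62 in sample 2, and 8 of its members lay between 118300001 and 118400000.

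The bin on chromosome 2 from 165000001 to 166000000, with 31 members, holds Eya2, a transcriptional coactivator, Zmynd8, a chromatin reader, and Ncoa3, a nuclear receptor coactivator. It had the fullest stretch of all dense bins: 11 members lay in the 100 kb from 165700001 to 165800000, and 2 stretches of 100 kb held none. Sample 1 had 36 regions in the bin and sample 2 had 46. The remaining bins had 30 members each. The bin on chromosome 10 from 126000001 to 127000000 holds Cdk4, a kinase of the cell cycle, Ddit3, a stress response factor, and Gli1, a target and effector of Hedgehog signalling. It had 37 regions in sample 1 and 48 in sample 2, and 11 of its members were wide in both lists. The bin on chromosome 5 from 117000001 to 118000000 holds the kinase gene Taok3 and Pebp1, an inhibitor of Raf, and had 39 and 43 regions in samples 1 and 2. The bin on chromosome 5 from 147000001 to 148000000 holds the deubiquitinase gene Usp12, Rasl11a and the ubiquitin ligase gene Lnx2, and had 36 and 45 regions.

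The strongest member of any dense bin lay in this last bin, from 147072489 to 147072961. It was 473 bp wide, also the widest member, and scored 768.48 in sample 1 and 483.98 in sample 2. It was the only member among the 10 strongest of all shared regions. Of the 100 strongest autosomal shared regions, 12.0% were members, and of the 1000 strongest 13.7%, beside 14.02% of all autosomal shared regions. The next strongest members were on chromosome 4 at 148201334 to 148201573 (scores of 624.57 and 361.05 in samples 1 and 2), chromosome 5 at 125376795 to 125377036 (660.49 and 337.34) and chromosome 7 at 25487853 to 25487989 (627.52 and 268.41). The highest sample 2 score of a member, 776.64, was that of the region on chromosome 7 from 51653590 to 51653946, which scored 503.03 in sample 1. At the other end, the member with the lowest mean percentile spanned 124959609 to 124959757 on chromosome 5 and scored 72.61 and 50.64, close to the lowest scores in the lists of 70.03 and 50.00. Crowded bins thus held regions from both ends of the score percentiles of each list.

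The genes in this and the next paragraph were chosen after the counts of bins had been seen, and they support nothing about gene classes. Several dense bins hold genes of embryonic development: the limb and heart factors Tbx3 and Tbx5 share the chromosome 5 bin from 120000001 to 121000000, with 29 members, 35 regions in sample 1 and 59 in sample 2. The Wnt ligand gene Wnt7b lies in the chromosome 15 bin from 85000001 to 86000000 with 29 members, Sall4 in the chromosome 2 bin from 168000001 to 169000000 with 27, and Snai1, a repressor of epithelial genes, in the adjoining bin before it with 21. The bins of Pax2, of Sox2 and of the pair Tfap2c and Bmp7 held 22 each, and that of Foxc2 held 23. Among genes of growth and signalling, the bin of the receptor genes Erbb2 and Rara held 29, that of Trp53 24, that of Fgfr1 23, that of Fos 22 and that of Ctnnb1, which encodes beta-catenin, 20. The bin of the coactivator gene Ep300 held 26.

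Ldb1, the gene of Clim2 itself, lies in a dense bin of the chromosome 19 run, from 46000001 to 47000000. This bin was at the limit of 20 members, out of 26 regions in sample 1 and 39 in sample 2. Its strongest member lay from 46592757 to 46592843 and scored 298.53 in sample 1 and 140.47 in sample 2. The bins of 7 genes known from corneal or basal epithelium are given for comparison, with 4.99% of all autosomal bins being dense and nothing read from so few genes. The bin of 1 of them was dense, that of Tgfbi, a matrix protein gene mutated in corneal dystrophies, on chromosome 13 from 56000001 to 57000000 with 22 members. The bins of the keratin genes Krt14 and Krt5 had 16 shared regions each, that of the eye master regulator Pax6 had 13, that of the corneal keratin Krt12 had 12, that of the epithelial factor Klf4 had 10 and that of Trp63, the factor of basal epithelial identity, had 5. The latter count lay below the median of 7 over bins that were not dense.

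The rule counted shared regions only, so the regions found in 1 list were set beside them. These unshared regions were also more frequent in dense bins. Sample 1 had a mean of 4.51 ± 2.26 unshared regions per dense bin (SD over 121 bins) and 1.87 ± 1.81 per other bin (SD over 2304 bins), a ratio of 2.42. Sample 2 had 16.5 ± 5.26 and 8.36 ± 4.23, a ratio of 1.98. No dense bin was without an unshared region of either list. The sample 1 count lay above the median of the other bins in 116 of the 121 dense bins and the sample 2 count in 114. Within chromosomes the dense bins had the higher mean on 18 of 19 for sample 1, with chromosome 9 as the exception (2.00 in its 4 dense bins and 2.25 in the others). For sample 2 it was again 18 of 19, with chromosome 14 as the exception, where the only dense bin held 7 and the others a mean of 8.11. The values of dense and other bins overlap for both lists, and the difference was not tested, because 2 samples of 1 group allow no test over samples. The depth of reads along the genome without the antibody was not measured, and its part in these counts was not tested.

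**Figure D2:**
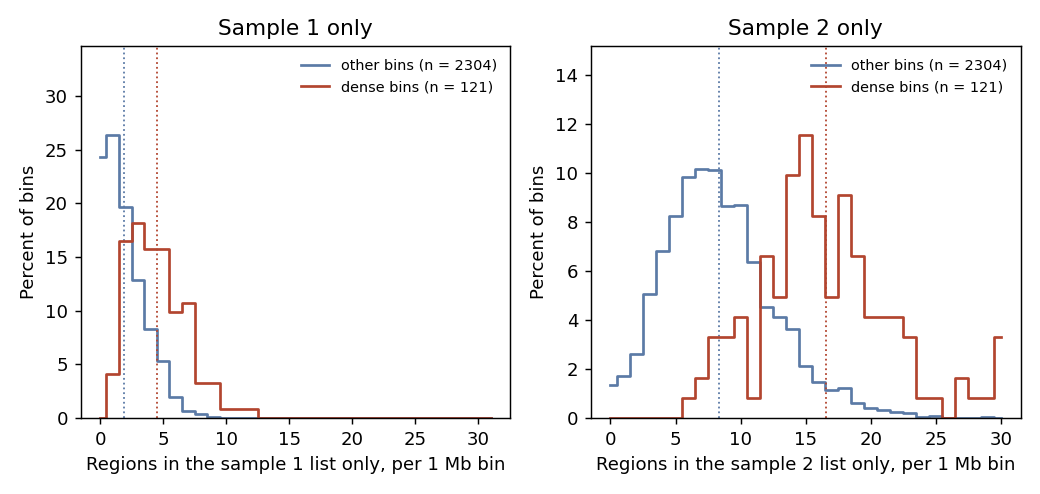
Percent of bins (vertical axis) by the number of regions found in the sample 1 list only (left) or in the sample 2 list only (right) per 1 Mb bin (horizontal axis), for 121 dense bins in red and 2304 other bins in blue. Dotted lines mark the means, 4.51 and 1.87 at the left and 16.5 and 8.36 at the right; the distributions are shifted and overlap.

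A larger share of each list was shared in dense bins than in the others. In sample 1 it was 83.7% of 3345 regions (exact 95% interval 82.4 to 84.9%), beside 80.0% of 21469 in the other bins (79.4 to 80.5%). In sample 2 it was 58.4% of 4809 (57.0 to 59.8%), beside 47.2% of 36473 (46.7 to 47.7%). Dense bins were chosen for their shared regions, which raises this share by itself, so nothing is read from it. The intervals cover counting error only and treat regions as independent.

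Of the 121 bins with most regions found in sample 1 only, 37 were dense, and of the 121 with most regions found in sample 2 only, 47 were dense, beside 4.99% of all autosomal bins. Bins with equal counts were ranked in genome order, so both numbers can depend on that order. The highest sample 1 only count was 12 in dense bins and 31 in other bins, and the highest sample 2 only count was 30 and 29. The lists differed within single bins: the chromosome 8 bin from 26000001 to 27000000, which holds Fgfr1, had 1 region in sample 1 only and 30 in sample 2 only around its 23 members.

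The density did not end at the border of a dense bin. The 163 bins at 1 Mb from a dense bin, which are by definition below 20, held a mean of 11.9 ± 4.57 shared regions (SD over bins), 3.16 ± 1.94 found in sample 1 only and 12.3 ± 5.43 found in sample 2 only. At 2 Mb the means were 9.82, 2.40 and 9.74, and at 5 Mb they were 8.16, 1.91 and 8.16. In the 1405 bins more than 10 Mb away they were 6.64, 1.68 and 7.84. Shared and unshared regions thus both declined over several megabases, with the steepest step of the shared regions at the border of the dense bins, where the rule itself puts one.

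**Figure D3:**
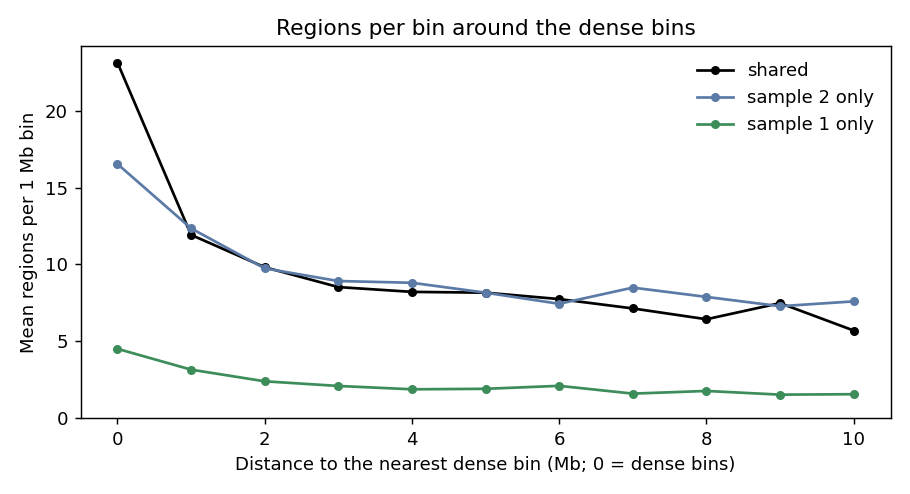
Mean number of regions per 1 Mb bin (vertical axis) by distance in Mb from the nearest dense bin (horizontal axis, 0 for the dense bins), for shared regions in black, sample 2 only in blue and sample 1 only in green. Shared regions go from 23.1 in dense bins to 11.9 at 1 Mb and 8.16 at 5 Mb, and both kinds of unshared region decline with them.

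In width the members were close to the other shared regions. Their median width was 132.5 bp (interquartile range 88 to 168 bp, from 68 to 473 bp), beside 131 bp (85 to 170 bp) for the 17161 shared regions of other autosomal bins. As called in sample 1 the median was 84 bp for members and 83 bp for the others, and as called in sample 2 it was 103 bp and 101 bp. The difference between samples 1 and 2 within the members was therefore larger than that between members and other regions. On 10 of 19 chromosomes the members had the higher median width and on 8 the lower. No member reached 1 kb, and 25 were 300 bp or wider. In 12 members more than 1 region of a list had been merged, and the highest score of the list was then used.

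Both lists hold narrow and wide regions, divided here at 105 bp for sample 1 and at 100 bp for sample 2. Of the members, 987 were narrow in both lists (35.3%, exact 95% interval 33.5 to 37.1%), beside 36.1% of the other autosomal shared regions. Another 659 were wide in both (23.6%, 22.0 to 25.2%), beside 23.4%. A further 789 were narrow in the first list but wide in the second (28.2%, beside 27.5%), and 363 were the reverse (13.0% in both sets). The ratio of densities was similar for all 4 classes. Per bin, the dense bins held 3.03 times as many regions narrow in both lists as the other bins, 3.12 times as many wide in both, and 3.19 and 3.10 times as many of the classes that changed. Over all shared regions, the ratio was 3.10, which the rule sets.

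Single bins departed from this mixture. The chromosome 19 bin from 44000001 to 45000000, which holds Pax2, had no member wide in both lists among its 22, and its median width of 80 bp was the lowest of all dense bins. The chromosome 10 bin of Gli1 and the chromosome 15 bin from 80000001 to 81000000 had 11 members wide in both lists, the highest count, out of 30 and 22. By share, other bins exceeded that of Gli1. The bins starting at 25000001 on chromosome 19, 26000001 on chromosome 8 and 69000001 on chromosome 11 had 10 each, out of 20, 23 and 24. The median width of a dense bin reached 183 bp on chromosome 7 from 51000001 to 52000000. With 20 to 42 members a bin, these departures rest on few regions.

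The scores were as little different as the widths. Scores are values of the peak caller, deposited by the authors, and were compared only within a list. The members' median score in sample 1 was 170.09 (interquartile range 125.8 to 229.2), beside 172.77 (128.5 to 232.4) for the other shared regions. In sample 2 it was 94.41 (71.3 to 128.5), beside 95.37 (71.4 to 131.4). As percentiles of the list, the members' medians were 51.3 in sample 1 and 61.8 in sample 2, and those of the others were 53.2 and 62.8. Within chromosomes the members' median score was higher on 7 and lower on 11 of 19 in sample 1, and higher on 8 and lower on 10 in sample 2. The highest member scores were 768.48 and 776.64, and those of the other shared regions, a set of 17161, were 3100 in both lists.

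**Figure D4:**
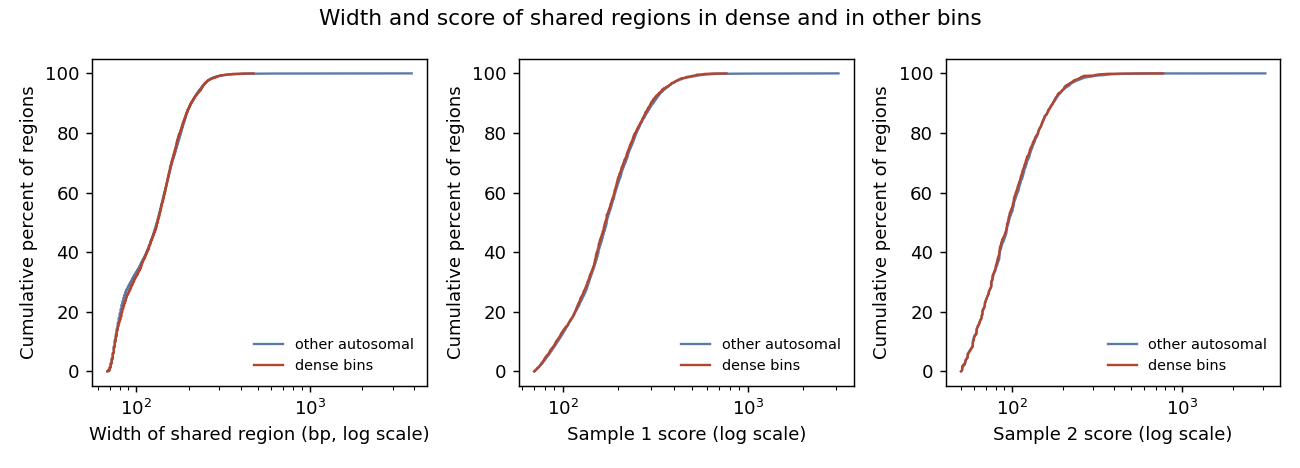
Cumulative percent of shared regions (vertical axes) by width in bp, by sample 1 score and by sample 2 score (horizontal axes, log scale), for the 2798 members in red and the 17161 shared regions of other autosomal bins in blue. The curves lie on each other over nearly their whole course, and the blue curves alone reach beyond 473 bp and beyond scores of 768.48 and 776.64.

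The order of member scores was weakly related between the lists, as it was elsewhere. Across the 2798 members Spearman's rho between sample 1 and sample 2 scores was 0.19, beside 0.17 for the other autosomal shared regions. It was 0.48 for members wide in both lists and 0.12 for members narrow in both, beside 0.47 and 0.07. These are correlations across regions of the same libraries, which are not independent, and they are given as a description.

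Median scores also varied from bin to bin. In sample 1 they went from 121.83, on chromosome 4 from 140000001 to 141000000, to 213.70 in the chromosome 15 bin of Ep300, with a median of 168.7 over the 121 bins. In sample 2 they went from 71.06, on chromosome 5 from 119000001 to 120000000, to 128.65 in the chromosome 17 bin of Cbs, with a median of 94.7. The bins at the ends of the order were not the same in the lists.

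Spacing depends on density, by which the bins were chosen, so the distances are a description. The median distance of a member to its nearest shared region, between midpoints, was 12761 bp (interquartile range 5133 to 28128 bp), beside 33477 bp for shared regions in other bins. Another shared region lay within 5 kb of 681 members (24.3%, exact 95% interval 22.8 to 26.0%) and of 11.6% of the others. It lay within 1 kb of 175 members (6.25%, 5.39 to 7.22%), beside 3.14% of the others, and within 50 kb of 90.4% and 62.3%. These shares are taken over regions, whereas the 3.10-fold ratio of densities is taken over bins, so they cannot be set against each other.

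**Figure D5:**
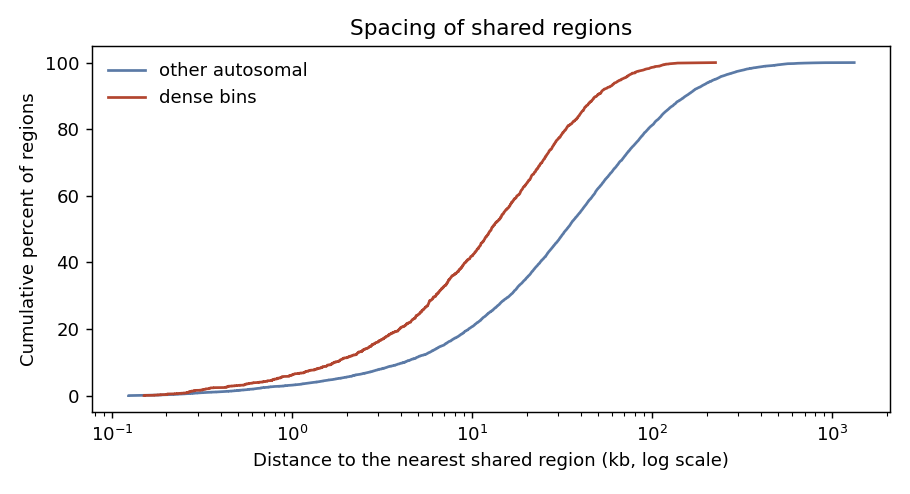
Cumulative percent of shared regions (vertical axis) by the distance in kb to the nearest shared region (horizontal axis, log scale), for members in red and shared regions of other autosomal bins in blue. From 1 to 100 kb the members lie closer together, with a median of 12761 bp beside 33477 bp. Spacing depends on density, by which the bins were chosen. The shortest distance was 150 bp for members and 123 bp for the others.

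Within dense bins the members were spread over most of the megabase. The median dense bin had members in 9 of its 10 stretches of 100 kb. In 22 bins all 10 stretches were occupied, and in 2 bins only 6 were. The fullest stretch of a bin held a median of 5 members, 6 or more in 49 bins and 8 or more in 6 bins. The median gap from one member to the next was 26.3 kb over the bins, with a range from 11.5 kb in the chromosome 11 bin of Erbb2 to 46.3 kb on chromosome 10 from 75000001 to 76000000. Even placement of the members would give 45.5 kb in the median bin, and the median gap was below the even one in all 121 bins. No random placement was set beside the stretches or the gaps, so these values are a description. The widest gap in a bin was over 200 kb in 32 bins and reached 442.4 kb.

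The chromosome 5 bin from 119000001 to 120000000 was among the most concentrated: its 20 members occupied 6 stretches, and 9 of them lay in a single stretch. This bin holds Med13l, a Mediator subunit gene, and the gene-poor interval before Tbx3. By contrast, the chromosome 17 bin from 5000001 to 6000000 spread its 23 members over all 10 stretches, with at most 3 in any.

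The closest members were nearly adjacent. The shortest distance between midpoints, 150 bp, was on chromosome 2 between the regions from 167625881 to 167626039 and from 167626049 to 167626171, in the bin of Snai1. The first scored 81.54 in sample 1 and 63.66 in sample 2, and the second 142.91 and 185.33. On chromosome 15 the regions from 82161394 to 82161495 and from 82161577 to 82161652 were 170 bp apart, with sample 1 scores of 200.12 and 168.14. A pair of members within 1 kb of each other was found in 62 of the 121 dense bins. Members this close were called separately in both lists, and whether they mark separate sites was not tested.

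Although rich in regions, the dense bins were covered thinly. The 2798 members covered 382.6 kb, or 0.316% of the length of the dense bins, beside 0.102% for the shared regions of the other autosomal bins. A dense bin had a median of 3050 bp under its members, with a range from 2131 bp to the 5990 bp of the fullest bin.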

How the data were processed

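The authors deposited 1 list of called regions per sample, 2 lists in all, in mm9 coordinates. Each region has a score from the peak caller, deposited by the authors without a statement of what it measures. Region names carry the prefix MACS, per the files, and Bowtie 0.12.7 and bedtools 2.11.2 are named in the submitters' processing notes. Its settings and any control library were not given in the sources used here. Start and end positions are as deposited, printed counting from 1.

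Regions overlapping by 1 bp or more were merged, assigned by midpoint to 1 Mb bins and counted with numpy 2.4.6, pandas 2.3.3 and scipy 1.17.1 in Python 3.11.15. Shares carry exact (Clopper-Pearson) 95% intervals. Width classes were divided where the width histogram of a list, in steps of 5 bp, was emptiest between the narrow and wide populations. The code was tested on simulated data: all 50 planted dense bins were found, and no other of 2425 bins. The planted bins lay above the limit of 20 and all others far below it. This checks the counting only, and bins near the limit were not simulated. The 10 bins with most shared regions, the runs of adjacent dense bins and the strongest member of a bin were named by rule. For genes, all 61 symbols checked matched a RefSeq table of GRCm38, used for names and order only. The members, lists and rules were chosen with earlier results of these data known. No sequence is shown, because no genome of the lists' build was used here. Alternatives changed the overlap, the limit, the bin origin, the score limit, the assignment and the lists used.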

Additional observations from a re-analysis of the deposited data

How the results depend on the processing

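The number of dense bins and members follows the limits chosen. Moving the bins by 500 kb gave 106 dense bins with 2487 members, and assigning by start changed none. A limit of 15 gave 352 bins with 6657 members, at a median gap of 16537 bp, and a limit of 25 gave 26 bins with 756. With a reciprocal overlap of at least 50%, 33 bins with 752 members remained, all of them among the 121; their median width was 113 bp, 25.9% were wide in both lists, and 32.7 unshared regions lay in each, beside 21.04 over both lists under the main rule. With the upper 50% of each list by score and a limit of 10, there were 53 bins with 577 members, 34 of them among the 121, with a median width of 107 bp, 12.0% wide in both lists and a median gap of 31029 bp. Some of these counts fell by construction, since fewer regions were used. The unshared count under the reciprocal rule also takes in regions that overlap by less than 50%, so it is not like the main count. Without sample 1, the list left had 799 dense bins with 22255 regions and a median width of 103 bp. Without sample 2, the list left had 260 dense bins with 6399 regions and a median width of 84 bp. All 121 bins were among the dense bins of either list, as the rule requires. Of the 44 alternative values, 23 lay within the spread set for them. No paired analysis was possible because there is 1 group. Depth is unknown, and the lists start at different scores, 70.03 in sample 1 and 50.00 in sample 2. An unshared region may therefore be absent from the other list or missed in it. The part of depth and of the lowest scores in the larger number of sample 2 only regions was not tested.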
